A study of Homo sapiens with 9 samples.

Results

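The 10 leukocyte integrin genes ITGA4, ITGA5, ITGA6, ITGAL, ITGAM, ITGAV, ITGAX, ITGB1, ITGB2 and ITGB7 were followed in HNT34, a human acute myeloid leukemia (AML) cell line with high EVI1 and a rearrangement of 3q26. They were taken by symbol from a table of 16612 genes, and all 10 were present. Cells carried a pZIP-hEF1a-RFP-Puro vector with a non-targeting shRNA (NT), EVI1 shRNA 16 (sh#16) or EVI1 shRNA 87 (sh#87), so that every group, NT included, had been transduced and selected. RNA was collected 3 days after selection, and each group had 3 libraries of polyA-selected, strand-specific RNA-seq. The labels do not say whether the libraries of a group came from separate cultures, and p-values then measure only the spread between these libraries. In another label field the libraries titled 87 carry the shRNA number 18, and they were kept as sh#87. The series describes the intervention as a knockout, whereas these are shRNA knockdowns in a single cell line.

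Integrins are membrane receptors built from an alpha and a beta chain, and the pairing sets the ligand. ITGB1 (beta-1) pairs with ITGA4 to bind VCAM-1 and fibronectin, with ITGA5 to bind fibronectin and with ITGA6 to bind laminin, whereas ITGB2 (beta-2) pairs with ITGAL, ITGAM or ITGAX in the receptors LFA-1, Mac-1 and p150,95 of leukocytes. ITGB7 pairs with ITGA4 in a gut-homing receptor, and ITGAV binds ligands with an RGD motif together with several beta chains. In blood progenitors these receptors hold cells to the marrow stroma, and ITGA6 has been linked to EVI1 in the adhesion of AML cells.

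The promoters of 3 members that moved in opposite directions are shown for their sequence context, namely ITGA6, which was lower in the knockdown libraries, and ITGAM and ITGB7, which were higher. The sequences are RefSeq promoters of build GRCh38.p14, each running from 250 bases before a listed start site to 50 bases after it, and 7 of the 10 members had at least 1 such entry. Capitals mark exact matches on either strand to GATAA, a core read by GATA factors, or to GAGGAA, a core read by the myeloid factor PU.1. Of the 2 listed ITGA6 promoters, the one printed lies at chr2:172427336-172427635 on the plus strand, the ITGAM promoter at chr16:31259725-31260024 on the plus strand and the ITGB7 promoter at chr12:53207202-53207501 on the minus strand.
ITGA6: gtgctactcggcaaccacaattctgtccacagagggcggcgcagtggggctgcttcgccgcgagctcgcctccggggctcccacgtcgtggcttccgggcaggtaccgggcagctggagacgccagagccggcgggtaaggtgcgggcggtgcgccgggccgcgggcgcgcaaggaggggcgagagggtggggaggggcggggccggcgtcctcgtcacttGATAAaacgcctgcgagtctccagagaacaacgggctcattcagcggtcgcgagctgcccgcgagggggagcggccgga
ITGAM: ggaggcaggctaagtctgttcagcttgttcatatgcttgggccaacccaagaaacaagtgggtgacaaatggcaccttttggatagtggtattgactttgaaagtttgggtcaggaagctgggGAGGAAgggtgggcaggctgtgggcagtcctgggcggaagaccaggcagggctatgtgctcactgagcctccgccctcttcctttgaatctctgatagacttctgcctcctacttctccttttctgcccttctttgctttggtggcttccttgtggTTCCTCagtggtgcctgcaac
ITGB7: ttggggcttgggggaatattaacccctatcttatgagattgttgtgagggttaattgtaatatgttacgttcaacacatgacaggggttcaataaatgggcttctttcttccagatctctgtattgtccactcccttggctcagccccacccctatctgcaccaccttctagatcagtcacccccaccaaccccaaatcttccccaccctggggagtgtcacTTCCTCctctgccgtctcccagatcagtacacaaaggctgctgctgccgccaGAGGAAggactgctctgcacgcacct
The ITGA6 window held GATAA with its first base 29 bases before the start site and no GAGGAA. The other ITGA6 window, at chr2:172427086-172427385, whose start site is the start of the gene, held neither. The ITGAM window held GAGGAA 127 bases before the start site, and the same letters on the other strand (printed as TTCCTC) 29 bases after it. The ITGB7 window likewise held GAGGAA on the other strand 28 bases before and on the printed strand 24 bases after the start site. The matches in these windows did not overlap each other. GATAA was present in 15.0% and GAGGAA in 28.1% of the 14998 listed promoters of genes in the table. A match describes letters only and is not a bound site. Among the windows not printed, ITGB1, which fell, held GAGGAA in 1 of its 2 windows, and ITGA4, which also fell, held neither. ITGAV, which was not called, held GAGGAA in 1 window and GATAA in its other window.

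Depth ranged from 17096170 to 43502389 counts per library, and the 10 integrin genes together made up 0.140% to 0.144% of each NT library, 0.126% to 0.130% of each sh#16 library and 0.0941% to 0.0976% of each sh#87 library. MECOM, which encodes EVI1, stood at 571.2, 503.9 and 440.5 CPM (counts scaled to a common library size) in the NT libraries, at 145.4, 142.8 and 145.2 CPM with sh#16 and at 109.2, 107.1 and 105.8 CPM with sh#87, so that 28.6% and 21.3% of its NT level remained. The NT libraries were less alike than the others, with a biological coefficient of variation of 24.9%, against 3.75% for sh#16 and 6.97% for sh#87. Their share of mitochondrially encoded counts was 15.9%, 11.5% and 4.69%, against 2.69% to 2.88% with sh#16 and 4.62% to 5.97% with sh#87. Because NT replicate 3 was closest to the knockdown libraries in this share, some members' values are also given with it as the sole NT library. Such a fit holds no spread between NT libraries, so only the size of the change is given. The part of this share in the results was not tested.

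Markers of other cell states moved with the groups. Of the 5 progenitor or blast markers, 4 were in the table, and their summed level was 1620 to 1776 CPM in NT, 328.9 to 332.4 CPM with sh#16 and 204.1 to 206.5 CPM with sh#87. PTPRC, which encodes the leukocyte marker CD45, averaged 855.2 ± 37.2 CPM in NT, 142.2 ± 5.67 CPM with sh#16 and 99.98 ± 3.18 CPM with sh#87 (SD, n = 3 each), while CD34 averaged 730.9 ± 55.3, 116.2 ± 2.11 and 42.4 ± 1.11 CPM. Of the stromal or endothelial markers, 4 of 5 were in the table, with a summed level of 409.1 to 560.7 CPM in NT, 121.4 to 126.6 CPM with sh#16 and 82.9 to 84.1 CPM with sh#87. Within that list COL1A1, a collagen chain of mesenchymal cells, went the other way, from 0.116 ± 0.0660 CPM in NT to 26.4 ± 0.498 CPM with sh#16 and 29.3 ± 1.11 CPM with sh#87. The monocytic list had 2 of 5 markers in the table, with sums of 7.87 to 14.1 CPM in NT, 5.77 to 6.35 CPM with sh#16 and 2.55 to 2.85 CPM with sh#87. Its members went opposite ways, as the lysozyme gene LYZ rose from 0.604 ± 0.115 CPM to 2.91 ± 0.189 CPM with sh#16 and 1.10 ± 0.155 CPM with sh#87, and the receptor gene CSF1R fell from 10.1 ± 3.05 CPM to 3.17 ± 0.203 and 1.58 ± 0.159 CPM. The B lymphoid list had 3 of 5, with sums of 21.1 to 48.5, 5.70 to 6.18 and 2.64 to 3.22 CPM, and the T lymphoid list had CD3E alone, at 7.14 to 10.1, 4.21 to 5.26 and 2.64 to 3.35 CPM. The megakaryocytic list had ITGA2B alone, at 108.1 to 266.9, 62.2 to 66.4 and 31.0 to 35.4 CPM, and none of the 5 granulocytic or 5 erythroid markers was analysed here. What part these markers have in the integrin values was not tested, and in bulk RNA fewer cells of a type and less RNA per cell cannot be told apart. The knockdown libraries had low PTPRC and CD34 and held COL1A1. A change within HNT34 cells and a different make-up of the knockdown cultures cannot be told apart either. Every fold change against NT below carries this limit. So does every difference between the shRNAs, which also differed in CD34 and PTPRC.

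Against NT, ITGA4, ITGA6 and ITGB1 were lower and ITGAM, ITGAX and ITGB7 were higher with each shRNA. With sh#16, 3 members rose, 3 fell and 4 were not called at an adjusted p of at most 0.01 by the quasi-likelihood test of edgeR, against a background of 29.8% of the 16312 genes tested called higher and 30.2% called lower. With sh#87, 3 rose, 4 fell and 3 were not called, against 34.3% called higher and 33.6% called lower. The members' shares are near the background, so that a division into rising and falling genes is not particular to them. When a log2 change of 2 or more in either direction was also required, 0 of 10 members passed with sh#16 and 1, ITGAX, with sh#87, against 12.8% and 18.9% of all genes. The median log2 fold change of the members was 0.04 with sh#16 and -0.16 with sh#87, beside 0.04 for all genes with each. Both comparisons use the same NT libraries. They also share an estimate of each gene's spread over all groups, so each p-value reflects the group outside its comparison as well.

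**Figure D1:**
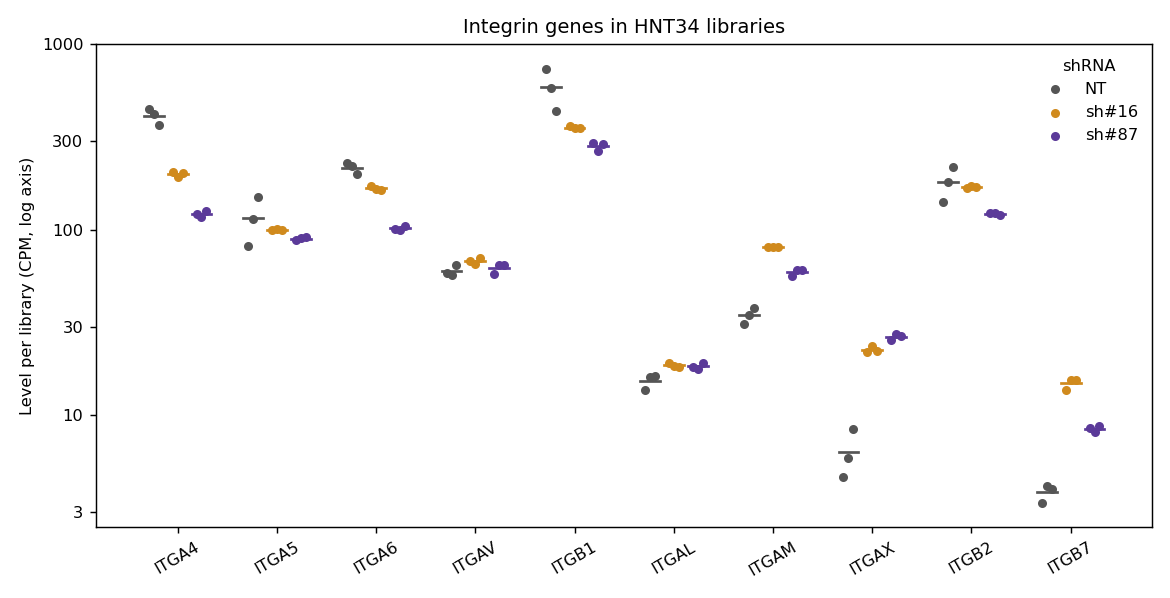
Level of each integrin gene in each of the 9 libraries (CPM, log axis); points are libraries and short lines are the means of 3 libraries of NT, sh#16 or sh#87. ITGA4, ITGA6 and ITGB1 lie lower in all 6 knockdown libraries, ITGAM, ITGAX and ITGB7 lie higher, and the NT points of ITGA5 and ITGB2 spread across the knockdown levels.

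Among the partners of beta-1, ITGA4 fell the most. Its level was 447.9, 417.3 and 366.8 CPM in the NT libraries, 204.9, 192.3 and 200.6 CPM with sh#16 and 120.7, 116.8 and 126.2 CPM with sh#87. The 3 groups did not overlap, with NT highest and sh#87 lowest. The log2 fold change was -1.04 (SE 0.0802, edgeR adjusted p = 4.11e-06) with sh#16 and -1.76 (SE 0.0819, edgeR adjusted p = 1.31e-07) with sh#87, a 2.06-fold and a 3.39-fold decrease.

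ITGA6, the laminin-binding alpha chain, fell with each shRNA and further with sh#87. It stood at 227.6, 221.2 and 198.2 CPM in NT, at 171.6, 166.0 and 164.3 CPM with sh#16 and at 100.2, 99.3 and 104.8 CPM with sh#87. Again the 3 groups were apart, and NT replicate 3 was the lowest of the NT libraries but above every knockdown library. The log2 fold change was -0.37 (SE 0.0651, edgeR adjusted p = 8.01e-04) with sh#16 and -1.09 (SE 0.0660, edgeR adjusted p = 6.06e-07) with sh#87. With NT replicate 3 as the sole NT library the sh#16 value was -0.24. With the 6 knockdown libraries as 1 group against all NT libraries the change was -0.68 (SE 0.202, edgeR adjusted p = 0.0110), which missed the threshold. DESeq2 placed that pooled value past it (adjusted p = 0.0027), as did leaving out any 1 sh#16 library in edgeR (adjusted p between 0.00667 and 0.00912).

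ITGB1, the common beta chain of these receptors, was the most abundant member in every group and fell with each shRNA. Its level was 737.1, 580.4 and 435.3 CPM in NT, 359.4, 352.5 and 350.7 CPM with sh#16 and 291.7, 264.9 and 287.7 CPM with sh#87. The NT libraries spread widely, but the lowest of them lay above every knockdown library. On the log2 scale the change was -0.72 (SE 0.158, edgeR adjusted p = 0.00275) with sh#16 and -1.05 (SE 0.159, edgeR adjusted p = 2.34e-04) with sh#87. Leaving out any 1 sh#16 library, or fitting sh#16 and NT alone, took the sh#16 call just past the threshold (adjusted p between 0.0107 and 0.0128). With NT replicate 3 as the sole NT library the fall was -0.30 with sh#16 and -0.62 with sh#87 on the log2 scale. A processed pseudogene, ITGB1P1, held between 3.22% and 3.65% as many counts as ITGB1 in NT and between 1.95% and 2.5% in the knockdown libraries, and adding its counts to ITGB1 left each call in place.

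ITGA5, the fibronectin receptor chain, and ITGAV did not pass the test with either shRNA. ITGA5 stood at 81.1, 114.4 and 149.9 CPM in NT, at 99.6, 100.4 and 99.6 CPM with sh#16 and at 87.6, 89.8 and 91.1 CPM with sh#87. The knockdown libraries lay inside the NT range. Its log2 fold change was -0.21 (edgeR adjusted p = 0.316) with sh#16 and -0.36 (edgeR adjusted p = 0.0861) with sh#87. Without NT replicate 1 the values were -0.42 (edgeR adjusted p = 0.00367) and -0.57 (edgeR adjusted p = 5.15e-04), which pass. With NT replicate 3 as the sole NT library they were -0.59 and -0.73. Without NT replicate 3 the sh#16 value turned to 0.00698 (adjusted p = 0.958). ITGAV was at 58.4, 57.2 and 64.7 CPM in NT, at 67.5, 65.2 and 70.3 CPM with sh#16 and at 58.0, 64.3 and 64.5 CPM with sh#87. Its sh#16 libraries were above all NT libraries by a small margin, with a log2 fold change of 0.17 (edgeR adjusted p = 0.0654), and its sh#87 libraries overlapped NT, at 0.05 (edgeR adjusted p = 0.546). Upper-quartile normalization called the sh#16 value (edgeR adjusted p = 0.0086), and with NT replicate 3 as the sole NT library the sh#16 value was 0.06.

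Of the alpha partners of beta-2, ITGAM and ITGAX rose and ITGAL was not called. ITGAM, which encodes CD11b of the complement receptor Mac-1, stood at 31.2, 34.7 and 37.7 CPM in NT, at 80.3, 80.8 and 80.3 CPM with sh#16 and at 56.3, 60.7 and 60.2 CPM with sh#87. It was above NT in every knockdown library and higher with sh#16 than with sh#87. This gave a log2 fold change of 1.22 (SE 0.0786, edgeR adjusted p = 1.40e-06) and 0.78 (SE 0.0783, edgeR adjusted p = 1.62e-05).

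ITGAX, which encodes CD11c of dendritic and myeloid cells, had the largest rise of the members with sh#87. Its level was 4.64, 5.89 and 8.40 CPM in NT, 21.8, 23.7 and 22.2 CPM with sh#16 and 25.5, 27.4 and 26.6 CPM with sh#87. Every knockdown library was above every NT library, and sh#87 was above sh#16. Its log2 fold change was 1.83 (SE 0.179, edgeR adjusted p = 1.89e-05) with sh#16 and 2.06 (SE 0.180, edgeR adjusted p = 6.30e-06) with sh#87, a 3.55-fold and a 4.17-fold rise. With NT replicate 3 as the sole NT library these values were 1.43 and 1.67, so that the sh#87 value no longer reached 2.

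ITGAL, which encodes CD11a of LFA-1, was at 13.6, 16.1 and 16.2 CPM in NT, at 19.2, 18.3 and 18.3 CPM with sh#16 and at 18.2, 17.7 and 19.1 CPM with sh#87. The knockdown libraries were all above the NT libraries, yet the difference was small and missed the threshold, with a log2 fold change of 0.28 (edgeR adjusted p = 0.0172) and 0.26 (edgeR adjusted p = 0.0227). With sh#16 it passed without NT replicate 3 (adjusted p = 0.00866). With each shRNA it was called under upper-quartile normalization, which raised the median of all genes by 0.10 with sh#16 and 0.12 with sh#87 on the log2 scale.

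ITGB2, the beta chain that ITGAL, ITGAM and ITGAX share, was not called with sh#16 and fell with sh#87. It stood at 141.3, 180.4 and 217.3 CPM in NT, at 166.7, 171.5 and 168.9 CPM with sh#16 and at 123.6, 122.7 and 119.4 CPM with sh#87. The sh#16 libraries lay inside the NT range and the sh#87 libraries below it. The log2 fold change was -0.09 (edgeR adjusted p = 0.556) with sh#16 and -0.56 (SE 0.130, edgeR adjusted p = 0.00325) with sh#87, and the latter call was lost in 5 alternatives (adjusted p between 0.0115 and 0.0144), which left out 1 sh#87 library or NT replicate 2, or fitted sh#87 and NT alone. With NT replicate 3 as the sole NT library the sh#16 value was -0.36. The sign of the sh#16 value turned without NT replicate 3 (0.0480) and under upper-quartile normalization (0.0183). The antisense transcript ITGB2-AS1 held between 4.75% and 6.55% as many counts as ITGB2 in NT and between 2.41% and 3.17% in the knockdown libraries. The kit keeps strand, but the strand setting of the counting was not given in the sources used here.

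ITGB7, the beta chain of the gut-homing receptor of lymphocytes, rose from a low level. It was at 3.35, 4.16 and 4.0 CPM in NT, at 13.7, 15.6 and 15.5 CPM with sh#16 and at 8.48, 8.13 and 8.74 CPM with sh#87. The 3 groups did not overlap and sh#16 was highest. Its log2 fold change was 1.95 (SE 0.111, edgeR adjusted p = 6.43e-07) with sh#16, a 3.87-fold rise, and 1.14 (SE 0.112, edgeR adjusted p = 1.33e-05) with sh#87, while its partner ITGA4 fell with each shRNA.

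**Figure D2:**
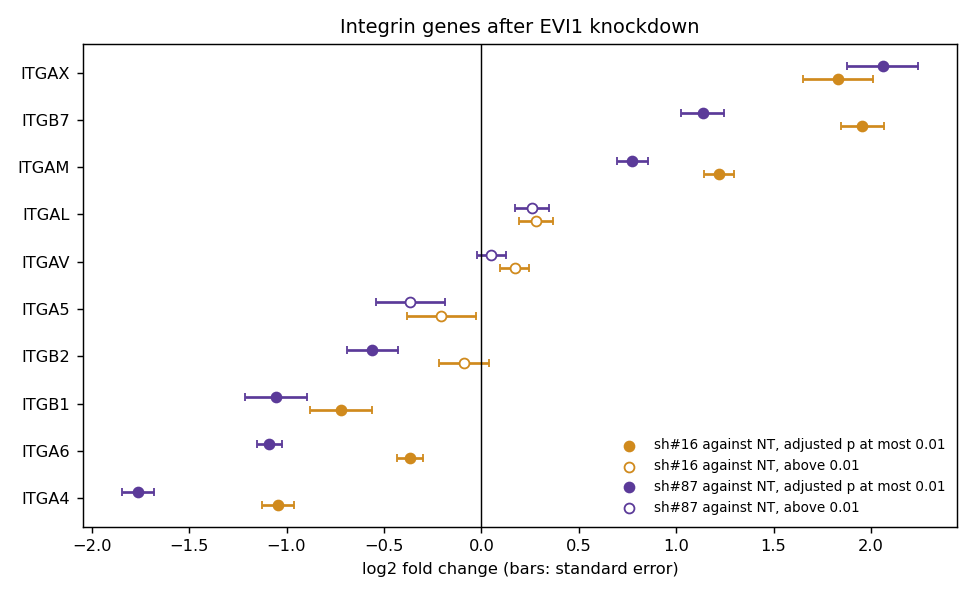
log2 fold change of each integrin gene with sh#16 and with sh#87 against NT (x axis), with bars of 1 standard error; filled points have an edgeR adjusted p of at most 0.01 and open points do not. Of the 10 genes, 6 were called in the same direction with each shRNA, and ITGAL, ITGAV and ITGA5 were called with neither. The share of all genes called in the same direction with each shRNA is not given here.

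With the 6 knockdown libraries as 1 group against NT, 3 members rose, 2 fell and 5 were not called, against 30.1% and 29.7% of all genes called higher and lower. ITGAX (log2 fold change 1.95), ITGB7 (1.60) and ITGAM (1.02) rose and ITGA4 (-1.36) and ITGB1 (-0.88) fell. This grouping carries the differences between the shRNAs as spread. With NT replicate 3 as the sole NT library ITGAX was at 1.55, ITGB7 at 1.55, ITGAM at 0.90, ITGA4 at -1.19 and ITGB1 at -0.45. ITGA5 was at -0.66. ITGB2, not called with all NT libraries, went from -0.30 to -0.57, and ITGAV from 0.11 to 0.01.

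The shRNAs also differed from each other. The fit of all 9 libraries shares an estimate of each gene's spread over all groups, so the wider spread of NT enters this comparison too. In the fit of all 9 libraries, 4 members were lower with sh#87 than with sh#16, 0 were higher and 6 were not called, against 8.29% of all genes called higher and 9.42% called lower. These were ITGB7 (log2 difference -0.82, SE 0.105, edgeR adjusted p = 7.37e-04), ITGA6 (-0.72, SE 0.0657, edgeR adjusted p = 1.73e-04), ITGA4 (-0.72, SE 0.0801, edgeR adjusted p = 3.95e-04) and ITGAM (-0.45, SE 0.0774, edgeR adjusted p = 0.00294). ITGA4 and ITGA6 thus fell further with sh#87, whereas ITGAM and ITGB7 rose less. The value was lower with sh#87 for 9 of 10 members, ITGAX being the exception (0.23, edgeR adjusted p = 0.322), and the median difference was -0.39, beside -0.02 for all genes. MECOM was also lower with sh#87 than with sh#16 (log2 difference -0.43, edgeR adjusted p = 0.00661). When sh#16 and sh#87 were fitted without the NT libraries, 8 members were called, with ITGA5, ITGAX, ITGB1 and ITGB2 added. The share of all genes called in that fit is not given here, so this count is not read as a result about the members. ITGB2 (-0.47, edgeR adjusted p = 0.0219 in the fit of all libraries) was also called without NT replicate 1 (adjusted p = 9.18e-04) or without NT replicate 3 (adjusted p = 0.00101). DESeq2 (adjusted p = 0.00291) and limma-voom with a weight per group (adjusted p = 4.23e-05) called the ITGB2 difference too. The ITGB1 difference was also called by limma-voom (adjusted p = 0.00141). The ITGAM difference was lost when any 1 knockdown library was left out (adjusted p between 0.0135 and 0.0165).

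Per length of the canonical transcript, which allows levels to be set between genes, ITGB1 led in every group, at 156.4 ± 40.4 CPM per kilobase in NT, 94.8 ± 1.23 with sh#16 and 75.3 ± 3.88 with sh#87 (SD, n = 3 each). ITGB2 came next in each group, at 64.0 ± 13.6, 60.2 ± 0.854 and 43.4 ± 0.781 CPM per kilobase. ITGA4 followed in NT at 60.6 ± 6.04 CPM per kilobase and its libraries overlapped those of ITGB2, whereas with sh#16 (29.4 ± 0.942) and sh#87 (17.9 ± 0.698) it overlapped ITGA6 (28.8 ± 0.659 and 17.5 ± 0.506). In NT, ITGA6 (37.1 ± 2.65) and ITGA5 (27.1 ± 8.09) overlapped as well. With sh#87, ITGA5 (21.1 ± 0.421 CPM per kilobase) stood above both ITGA4 and ITGA6. At the low end of NT were ITGAV (8.53 ± 0.573), ITGAM (7.31 ± 0.688), ITGAL (2.99 ± 0.285), ITGB7 (1.37 ± 0.152) and ITGAX (1.35 ± 0.411), the last pair overlapping. With sh#16, ITGAM (17.1 ± 0.0576) passed ITGAV (9.61 ± 0.361), and ITGB7 (5.31 ± 0.375) and ITGAX (4.84 ± 0.212), which overlapped, passed ITGAL (3.63 ± 0.104). With sh#87 the order at that end was ITGAM (12.5 ± 0.510), ITGAV (8.84 ± 0.529), ITGAX (5.68 ± 0.202), ITGAL (3.58 ± 0.137) and ITGB7 (3.01 ± 0.109), with no overlap between neighbours.

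The mix of chains differed between groups. ITGAL, ITGAM and ITGAX, the partners of beta-2, together made up 8.04 ± 0.855% of the summed per-length level of the 7 alpha genes in NT, 21.9 ± 0.399% with sh#16 and 25.0 ± 0.477% with sh#87 (SD, n = 3 each). A larger share is not a larger level. Per length, ITGAM, ITGA4 and ITGA6 were lower with sh#87 than with sh#16, ITGAL was similar and ITGAX was higher. The share of ITGA4 was 41.8 ± 4.55% in NT, 25.2 ± 0.541% with sh#16 and 20.6 ± 0.607% with sh#87, and the share of ITGA6 was 25.6 ± 2.02%, 24.6 ± 0.372% and 20.1 ± 0.329%. The ratio of ITGA4 to ITGA6 was 1.69, 1.62 and 1.59 in the NT libraries and between 0.994 and 1.05 in the knockdown libraries. Among the 3 beta genes the share of ITGB7 was 0.627 ± 0.130% in NT, 3.31 ± 0.236% with sh#16 and 2.47 ± 0.0624% with sh#87. The ratio of ITGB1 to ITGB2 was 3.92, 2.42 and 1.51 in the NT libraries, and the knockdown libraries, at 1.54 to 1.81, fell inside that spread. These shares are of RNA and do not measure receptors at the surface.

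**Figure D3:**
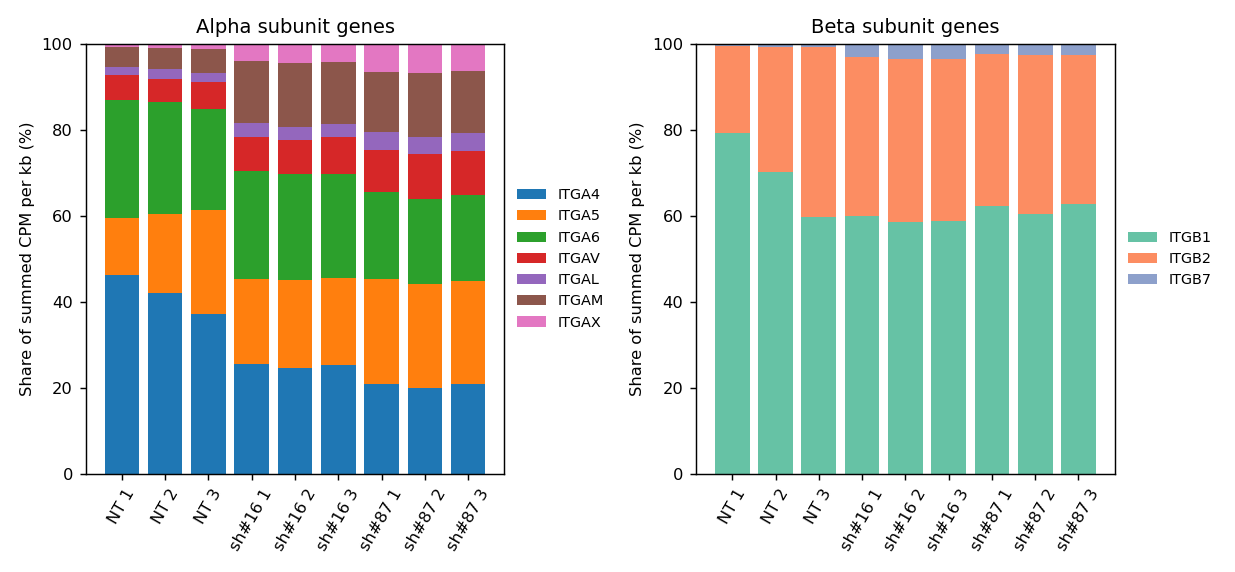
Share of each alpha gene (left) and each beta gene (right) in the summed level per transcript length (percent, y axis) in each library. ITGAM and ITGAX take a larger part of the alpha signal in the 6 knockdown libraries than in NT, and the ITGB1 share differs among the NT libraries.

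Over the 9 libraries, the 4 genes whose log2 CPM followed ITGA6 most closely among 11117 genes were ARHGAP25, a GTPase-activating protein of blood cells (Pearson correlation 0.997), ABCC4, a nucleotide exporter (0.997), the RNA helicase DHX9 (0.996) and the tRNA methyltransferase TRMT5 (0.995). ARHGAP25 averaged 139.8 CPM in NT, 110.2 CPM with sh#16 and 68.9 CPM with sh#87. Among the members, ITGA4 (0.957) and ITGB1 (0.888) followed ITGA6 most closely and ITGAX ran most against it (-0.817). The points share libraries and fall into 3 groups, so that these values mainly describe the order of the groups.

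The other integrin subunits included ITGA1 and ITGA3, which rose more than any member. Of 16 listed, 12 were tested, and 8 rose and 2 fell with sh#16, while 6 rose and 2 fell with sh#87, with a median log2 fold change of 1.56 and 1.13. Much of this list was at a low level. ITGB5, ITGA10, ITGB4, ITGA1, ITGB3, ITGB8, ITGA7 and ITGA11 averaged between 0.183 and 0.807 CPM in NT. The filter asks for enough counts in some libraries only, so genes this low in NT could be tested through their knockdown libraries. That favours rises over falls among them, and the counts and medians of this list are not read as its trait. ITGA2B and ITGA2, the highest of the list in NT, fell. Over all genes, 29.8% were called higher and 30.2% lower with sh#16, and 34.3% and 33.6% with sh#87, with a median of 0.04 each, and the list counts that follow stand beside these same shares. ITGA1, a collagen-binding chain, went from 0.319 ± 0.0454 CPM in NT to 5.62 ± 0.384 CPM with sh#16 and 5.67 ± 0.154 CPM with sh#87 (SD, n = 3 each), and ITGA3, a laminin-binding chain, from 3.88 ± 1.21 to 22.4 ± 2.01 and 19.9 ± 1.16 CPM. The platelet chain ITGA2B fell from 181.8 ± 80.0 to 64.9 ± 2.35 and 33.2 ± 2.21 CPM, and the collagen-binding ITGA2 from 44.6 ± 1.33 to 21.2 ± 0.311 and 27.5 ± 1.91 CPM. With limma-voom and a weight per group, 6 of the 12 were called with sh#16.

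Genes that regulate the activation of integrins, activators and inhibitors alike, were called in each direction. Of 16 tested, 7 rose and 5 fell with sh#16, and 5 rose and 5 fell with sh#87, with a median log2 fold change of 0.14 and 0.04. Among those that rose were FLNA (log2 fold change 1.57 with sh#16 and 2.01 with sh#87) and SHARPIN (1.16 and 1.45), and ITGB1BP1 rose with sh#16 (0.49) but was not called with sh#87 (0.24). All 3 encode proteins known to restrain integrin activation. The talin genes, whose proteins activate integrins, rose with each shRNA as well. These were TLN1 (0.36 and 0.48) and TLN2 (0.72 and 0.85). The 4 named by their size of change all fell. FERMT3, which encodes kindlin-3, the kindlin of blood cells, fell from 118.2 ± 43.2 CPM to 15.9 ± 0.943 CPM with sh#16 and 10.3 ± 0.986 CPM with sh#87, and APBB1IP, the Rap1 effector that recruits talin, fell from 57.7 ± 3.09 to 11.7 ± 0.377 and 6.79 ± 0.769 CPM. The adaptor FYB1 fell from 22.6 ± 3.93 to 6.38 ± 0.843 and 2.11 ± 0.158 CPM. RASGRP2, the exchange factor that loads Rap1, fell from 51.4 ± 15.1 to 14.4 ± 1.16 and 13.7 ± 1.36 CPM.

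Of 22 tested genes of adhesion signalling and linkage to actin, 7 rose and 11 fell with sh#16, and 6 rose and 12 fell with sh#87, with a median log2 fold change of -0.38 and -0.31. FGR, a Src-family kinase of myeloid cells, fell from 7.88 ± 1.78 CPM to 0.894 ± 0.0458 and 0.563 ± 0.0576 CPM. VCL, which encodes the focal adhesion protein vinculin, rose from 106.8 ± 10.98 to 362.2 ± 9.74 and 382.2 ± 16.4 CPM, and the docking protein BCAR1 from 1.10 ± 0.299 to 7.26 ± 0.386 and 7.57 ± 0.982 CPM.

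Of 14 tested ligands and counter-receptors, 4 rose and 6 fell with sh#16, and 6 rose and 5 fell with sh#87, with a median log2 fold change of -0.17 and 0.27. ICAM3, a leukocyte ligand of LFA-1, fell from 179.8 ± 24.7 CPM to 70.8 ± 1.25 and 47.1 ± 1.64 CPM, and ICAM1, a ligand of LFA-1 and Mac-1, from 48.1 ± 2.16 to 27.5 ± 2.20 and 20.3 ± 1.43 CPM. The laminin chain LAMA5 rose from 3.52 ± 1.85 to 13.9 ± 0.331 and 15.3 ± 0.899 CPM, and the matrix glycoprotein EMILIN1 fell from 13.7 ± 7.07 to 3.40 ± 0.765 and 2.94 ± 0.864 CPM.

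Of 14 tetraspanins and integrin-associated membrane proteins, 3 rose and 5 fell with sh#16, and 2 rose and 4 fell with sh#87, with a median log2 fold change of 0.04 and -0.33. The hyaluronan receptor CD44 fell from 899.5 ± 48.5 CPM to 492.8 ± 8.98 and 400.6 ± 11.3 CPM, the leukocyte tetraspanin CD37 from 83.9 ± 31.5 to 40.6 ± 1.14 and 31.0 ± 2.97 CPM, and the tetraspanin CD63 from 49.1 ± 5.02 to 32.5 ± 1.41 and 18.9 ± 1.35 CPM. BSG, which encodes basigin, rose from 163.9 ± 32.0 to 304.0 ± 0.596 and 279.4 ± 11.2 CPM. The number called is the least settled of the lists. With sh#16 it was 5 in place of 8 when NT replicate 2 or any 1 sh#16 library was left out. It was also 5 when sh#16 and NT were fitted alone. With sh#87 it was 11 in place of 6 without NT replicate 1.

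**Figure D4:**
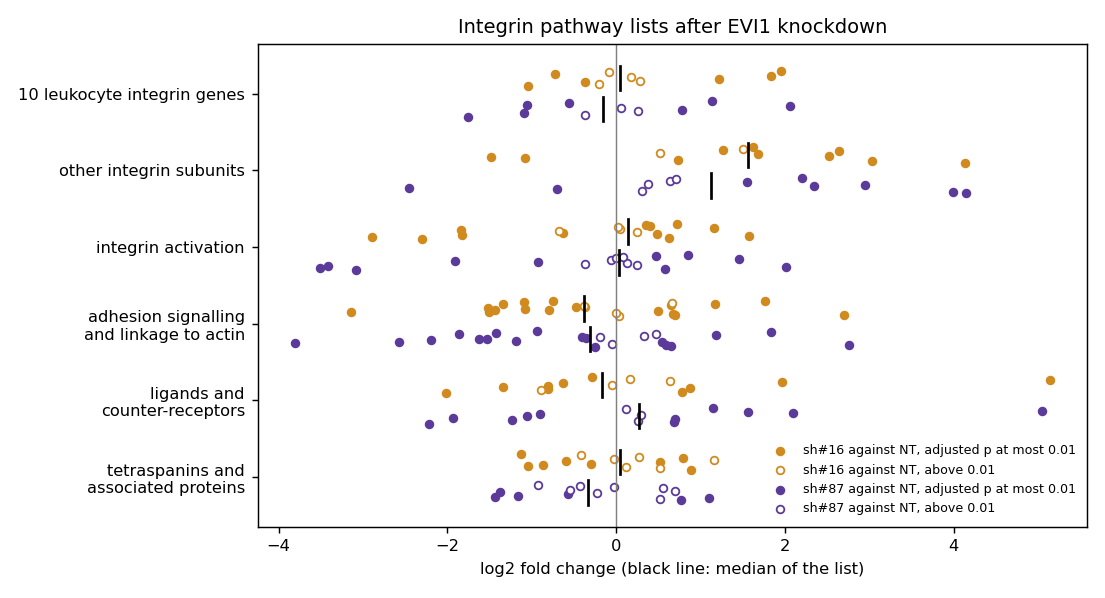
log2 fold change (x axis) of each tested gene of the integrin lists with sh#16 and with sh#87 against NT; filled points have an edgeR adjusted p of at most 0.01, and black lines are list medians. Most other integrin subunits lie right of 0, many of them from a low level in NT, whereas the other lists hold genes on each side.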

How the data were processed

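RNA-seq was analysed from 9 HNT34 libraries, 3 each of NT, sh#16 and sh#87, grouped by their titles. The authors deposited 1 table of expected counts per gene. Its header names salmon outputs, whereas the methods name STAR gene counts, FastQC and GRCh38, and the header stands 1 column left of the values. No value needed rounding. The choice of genes for the table is not given in the sources used here. Counts were tested in R 4.3.3 with edgeR 4.0.16 (TMM, filterByExpr, quasi-likelihood test, Benjamini-Hochberg adjustment over 16312 genes) in a fit of 3 groups, or of 2 groups for both shRNAs against NT. CPM used TMM-scaled library sizes, so that 3 counts equal between 0.0648 and 0.164 CPM, and counting error is small at the members' levels. Transcript lengths came from GENCODE canonical transcripts. The fit was tested on simulated data. Alternatives were RLE and upper-quartile normalization, DESeq2 1.42.0, limma-voom 3.58.1 with a weight per group, no filter, an adjusted p of 0.05, no mitochondrially encoded genes, other groupings in the fit, a replicate block and leaving out each library. NT replicate 3 as the sole NT library and ITGB1P1 counts added to ITGB1 were chosen after seeing the data. The members, lists and markers were chosen with earlier results of these data known. Named genes were all members, MECOM, the 5 genes most correlated with ITGA6 among those averaging at least 5 CPM, and from each other list up to 4 genes with the largest change with both shRNAs, called with each in the same direction and with a mean of 5 CPM or more in the higher group. Some genes that this rule names are left out and not reported here. PTPRC, CD34, COL1A1, LYZ, CSF1R and CD3E were named from the marker lists after their values were seen. FLNA, SHARPIN, ITGB1BP1, TLN1, TLN2 and the integrin subunits of low level were also named after their values were seen. ITGB1P1 and ITGB2-AS1 were named as copies of or partners to members. Figures used Python 3.11.15 and matplotlib 3.10.9.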

Additional observations from a re-analysis of the deposited data

Results flagged for a closer look

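The total of 43502389 counts in sh#16 replicate 2 stood apart from the other knockdown libraries, with a gap of 0.773 of their whole range. It was 1 of 11 measures compared over the 6 knockdown libraries, the total and each member. Chance alone flags about 1 in 20 where the values form 1 group. The CPM values of the members in this library did not stand apart. Where a member differs between the shRNAs, that difference widens its range, so the check is weak there.

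Levels differed between the shRNAs, by the test of sh#87 against sh#16, for ITGA4 (log2 difference -0.72), ITGA6 (-0.72), ITGAM (-0.45) and ITGB7 (-0.82). The edgeR adjusted p of each is given above. ITGA4 and ITGA6 were lower with sh#87 and ITGAM and ITGB7 higher with sh#16, in 3 of 3 libraries each.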

How the results depend on the processing

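Of 764 values of single members under an alternative, 701 kept their direction and their side of the threshold, 38 newly passed it, 19 no longer passed it and 6 changed sign. These counts include the fits with NT replicate 3 as the sole NT library, which hold no spread between NT libraries. Among values that were not called, leaving out 1 library moved the log2 fold change of ITGA5 with sh#16 between -0.42 and 0.00698, that of ITGB2 with sh#16 between -0.25 and 0.0480, and the difference of ITGAL between the shRNAs between -0.0505 and 0.00238. Upper-quartile normalization put ITGB2 with sh#16 at 0.0183, and NT replicate 3 as the sole NT library put ITGAV with sh#87 at -0.0430. With that sole NT library, assumed to vary like the other groups, 2 members were called for both shRNAs against NT and 8 for sh#87 against sh#16, and 8 were also called when sh#16 and sh#87 were fitted alone. The cause was not tested. The share of all genes called is not given here for these fits or for the other alternatives in this paragraph. The counts of called members under them are therefore not read as results about the members. Leaving out 1 library gave between 5 and 7 called members with sh#16, between 6 and 8 with sh#87, between 5 and 6 for both shRNAs and between 3 and 5 for sh#87 against sh#16. Same-numbered libraries did not deviate together (correlations between -0.137 and 0.0826), so the replicate numbers do not pair them, and the fit with the replicate block called 6, 7, 5 and 4 members in these comparisons. The NT libraries varied more (24.9%) than the sh#16 (3.75%) and sh#87 (6.97%) libraries, and no member was near the limit of 3 counts. The data cover 1 cell line.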

Other observations

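The ratio of ITGAM to ITGAL per transcript length was 2.45 ± 0.0917 in NT, 4.70 ± 0.141 with sh#16 and 3.51 ± 0.188 with sh#87 (SD, n = 3 each). The ratio of ITGA5 to ITGA6 was 0.488, 0.708 and 1.03 in the NT libraries, between 0.794 and 0.829 with sh#16, inside that range, and between 1.19 and 1.24 with sh#87, above it. Of the promoters not printed, those of ITGB1 held 1 GAGGAA, 184 bases before a start site. Those of ITGAV held GAGGAA and GATAA in separate windows, whereas the other ITGA6 window held neither. No GATAA or GAGGAA was found in the listed windows of ITGA4 and ITGA5.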
